A study of Mus musculus with 6 samples.

Results

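The genes described here were SREBP2 (gene symbol Srebf2), its regulator Insig1 and 6 enzymes of cholesterol synthesis, Hmgcs1, Idi1, Fdps, Fdft1, Sqle and Lss. They were chosen by name as SREBP2 and genes it is known to activate, with earlier results of these data known. They were 8 of the 54532 genes in the count table. No receptor that takes up lipoproteins was among the 8, so uptake is described below only through a separate gene list. RNA was sequenced from whole hearts of 6 mice aged 3 months on the C57BL/6 background, 3 of each genotype. Mice 368, 369 and 370 were α1r/rα2s/s (labelled resistant) and carried the rodent α1 subunit of the Na/K-ATPase, which binds cardiotonic steroids weakly. Mice 379, 380 and 381 were α1s/sα2s/s (labelled sensitive), with α1 changed by amino acid substitutions that give it a high affinity for these steroids. Both genotypes carried the sensitive α2 subunit, all mice were male, and none was given a drug. The substituted α1 is present in every tissue and not in the heart alone, and the genotype cannot be read from counts per gene, so it rests on the labels. The comparison asks which of the cholesterol genes differed in level between hearts with a steroid-resistant and a steroid-sensitive α1.

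Cholesterol is built from acetyl-CoA through mevalonate, isoprenoid units, squalene and lanosterol. SREBP2 is a transcription factor held in the endoplasmic reticulum with its escort Scap, and INSIG proteins keep the pair there while sterols are plentiful. When sterols fall, the complex moves to the Golgi, proteases release the active part of SREBP2, and it raises transcription of the synthesis enzymes, of INSIG1 and of its own gene. Cell growth and membrane renewal draw on the pathway in the heart as elsewhere, while much of the body's cholesterol is made in the liver.

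The promoters are shown because these genes are usually described as responding together through sterol regulatory elements and neighbouring CCAAT boxes. A promoter from RefSeq (assembly GRCm38.p6) was matched for 5 of the 8 genes, and there was none for Sqle, Fdft1 or Fdps. Each runs 5′ to 3′ on the gene's own strand, which is the plus strand for all 5, from 250 bases before the start of transcription to 50 bases after it. Capitals mark matches to the sterol regulatory element, searched as TCACNCCAC, and to the CCAAT box, searched as CCAAT, each on both strands. On the opposite strand the CCAAT box reads ATTGG, and no match to one motif overlapped a match to the other.
Hmgcs1, chr13:119690101-119690400: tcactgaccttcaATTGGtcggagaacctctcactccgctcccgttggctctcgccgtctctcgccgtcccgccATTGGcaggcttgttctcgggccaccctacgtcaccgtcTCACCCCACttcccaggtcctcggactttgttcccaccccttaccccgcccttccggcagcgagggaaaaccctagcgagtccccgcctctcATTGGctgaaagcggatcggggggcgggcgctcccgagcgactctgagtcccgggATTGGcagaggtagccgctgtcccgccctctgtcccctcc
Idi1, chr13:8885356-8885655: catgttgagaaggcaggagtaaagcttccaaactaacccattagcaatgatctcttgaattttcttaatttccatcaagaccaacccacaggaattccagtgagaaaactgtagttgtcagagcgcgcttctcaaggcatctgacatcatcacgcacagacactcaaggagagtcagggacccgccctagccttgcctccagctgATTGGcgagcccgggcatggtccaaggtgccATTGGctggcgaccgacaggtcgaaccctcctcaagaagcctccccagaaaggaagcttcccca
Lss, chr10:76531355-76531654: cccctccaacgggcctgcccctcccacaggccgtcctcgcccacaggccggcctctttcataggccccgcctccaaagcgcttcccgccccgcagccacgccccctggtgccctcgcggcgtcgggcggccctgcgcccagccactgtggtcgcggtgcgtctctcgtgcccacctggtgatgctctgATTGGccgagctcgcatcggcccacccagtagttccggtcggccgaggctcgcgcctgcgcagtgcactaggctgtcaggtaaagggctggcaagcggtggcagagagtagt
Insig1, chr5:28071162-28071461: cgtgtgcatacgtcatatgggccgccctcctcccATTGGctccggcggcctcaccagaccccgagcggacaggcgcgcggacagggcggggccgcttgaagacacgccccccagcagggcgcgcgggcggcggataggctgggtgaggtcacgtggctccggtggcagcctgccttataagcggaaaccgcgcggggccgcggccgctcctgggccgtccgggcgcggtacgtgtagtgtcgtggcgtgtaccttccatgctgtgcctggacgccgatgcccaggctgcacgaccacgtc
Srebf2, chr15:82147019-82147318: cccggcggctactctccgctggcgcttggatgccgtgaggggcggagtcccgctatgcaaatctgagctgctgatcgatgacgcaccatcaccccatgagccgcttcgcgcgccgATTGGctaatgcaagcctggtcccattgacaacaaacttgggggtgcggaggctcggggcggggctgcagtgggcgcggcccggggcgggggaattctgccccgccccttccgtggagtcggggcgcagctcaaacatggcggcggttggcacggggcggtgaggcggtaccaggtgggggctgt
The Hmgcs1 promoter held a sterol regulatory element, TCACCCCAC, that began 137 bases before the start. It was the only one of the 5 promoters with a match to that motif, against 1.24% of the 32851 mouse promoters of the same length. All 5 held a CCAAT box, as did 37.4% of all promoters. Hmgcs1 had 4 matches to CCAAT, Idi1 had 2, and Lss, Insig1 and Srebf2 had 1 each. These matches describe letters in the window and were not tested as binding sites.

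The 6 hearts held between 19309312 and 20470065 counts each, and levels are given as counts scaled to library size by the trimmed mean of M values (CPM). Same-genotype hearts differed by 6.85 to 13.1 chi-square units per gene, so none was a second deposit of another. The share of counts from mitochondrially encoded genes was 23.4% to 24.4% in α1r/rα2s/s hearts and 25.0% to 26.0% in α1s/sα2s/s hearts. The summed level of 6 cardiomyocyte markers was 24632 to 27195 CPM and 25557 to 28377 CPM in these genotypes. In whole tissue, fewer cells of a type and less RNA per cell cannot be told apart.

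None of the 7 genes that had enough counts to be tested passed 0.05 in edgeR's quasi-likelihood test after Benjamini-Hochberg adjustment over all genes, where 1.44% of the 14866 genes tested did. At an unadjusted p of 0.05, 4 of the 7 passed, namely Idi1, Fdft1, Srebf2 and Insig1, against 14.5% of all genes tested. Directions were mixed, with Srebf2, Hmgcs1 and Idi1 lower in α1s/sα2s/s hearts and Fdft1, Sqle, Lss and Insig1 higher. The largest difference was that of Idi1, whose mean level in α1s/sα2s/s hearts was 0.568 times that in α1r/rα2s/s hearts. In 4 of the 7 genes the genotypes did not overlap, 2 being higher (Fdft1 and Lss) and 2 lower (Idi1 and Srebf2) in α1s/sα2s/s hearts. This lack of overlap was seen in 20% of all genes tested. DESeq2 gave an adjusted p for 6 of the genes and called none, where it called 3.65% of the 11038 genes it adjusted.

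**Figure D1:**
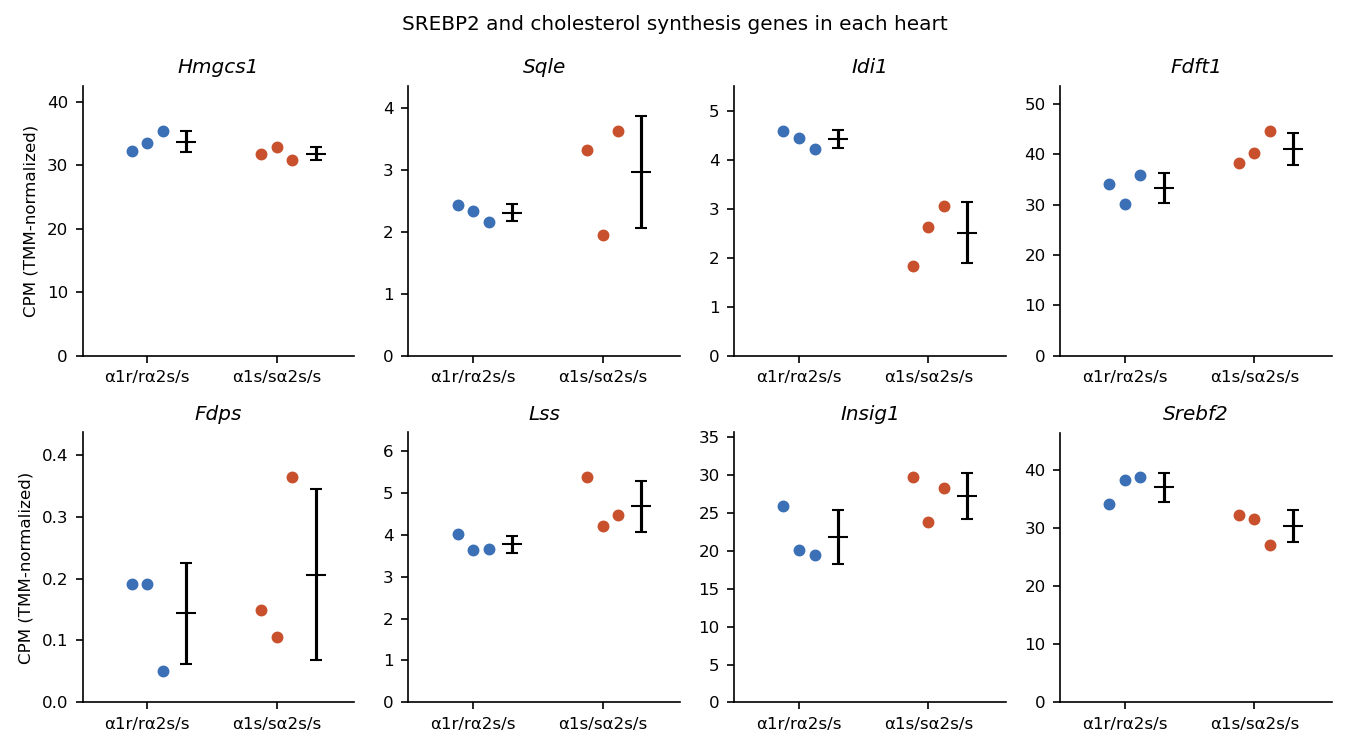
Level of the 8 genes in each heart, in CPM on an axis that starts at 0 in each panel. Points are hearts of the genotype named under them (3 each), and the bars give mean ± SD. Idi1 and Srebf2 are lower in all 3 α1s/sα2s/s hearts than in any α1r/rα2s/s heart, and Fdft1 and Lss are higher. Fdps rests on 1 to 7 counts per heart.

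Srebf2 (ENSMUSG00000022463, chr15:82147181-82205379 in GRCm38, plus strand) encodes the transcription factor itself. Its level was 34.1, 38.3 and 38.7 CPM in α1r/rα2s/s mice 368, 369 and 370, and 32.2, 31.6 and 27.2 CPM in α1s/sα2s/s mice 379, 380 and 381. Each α1s/sα2s/s heart was below each α1r/rα2s/s heart, with mouse 381 lowest. The means were 37.0 ± 2.53 and 30.3 ± 2.75 CPM (SD, n = 3 each), which gave a log2 fold change of -0.29 (SE 0.09). The adjusted p of 0.163 by edgeR's quasi-likelihood test did not pass. The transcript level says nothing of how much of the SREBP2 protein is processed to its active form.

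Insig1 (ENSMUSG00000045294, chr5:28071363-28078662, plus strand) encodes the sterol-dependent anchor that retains SREBPs in the endoplasmic reticulum, and its transcription is itself raised by SREBPs. It was at 25.9, 20.1 and 19.5 CPM in α1r/rα2s/s hearts and at 29.7, 23.8 and 28.3 CPM in α1s/sα2s/s hearts. Mouse 368 stood above the other α1r/rα2s/s hearts and above mouse 380, so the genotypes overlapped. The log2 fold change was 0.32 (SE 0.12), with an adjusted p of 0.235 by edgeR. Insig1 and Srebf2 had opposite directions, and neither passed the test.

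Hmgcs1 (ENSMUSG00000093930, chr13:119690379-119708260, plus strand) encodes the cytosolic synthase that makes HMG-CoA, the substrate of the pathway's rate-limiting step. Its levels were among the closest of the group, at 32.2, 33.5 and 35.4 CPM in α1r/rα2s/s hearts and 31.8, 32.8 and 30.8 CPM in α1s/sα2s/s hearts. The genotypes overlapped, and the log2 fold change was -0.08 (SE 0.08; adjusted p = 0.699 by edgeR). It was the smallest difference of the 7 genes. Exons of the antisense gene Gm48342 cover 35.1% of the coding bases and 12.1% of the exonic bases of Hmgcs1. Gm48342 had at most 3 counts in a heart, and whether reads over both genes were left uncounted was not tested.

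Idi1 (ENSMUSG00000058258, chr13:8885501-8892451, plus strand) encodes the isomerase that interconverts the isoprenoid units isopentenyl and dimethylallyl diphosphate. It was at 4.58, 4.44 and 4.22 CPM in α1r/rα2s/s hearts, from 96, 93 and 84 counts. In α1s/sα2s/s hearts it was at 1.84, 2.63 and 3.06 CPM, from 37, 50 and 59 counts. The α1r/rα2s/s hearts lay close together and the α1s/sα2s/s hearts spread further below them, with no overlap. The means were 4.42 ± 0.183 and 2.51 ± 0.621 CPM (SD, n = 3 each). The log2 fold change was -0.82 (SE 0.25), with an adjusted p of 0.130 by edgeR and 0.115 by DESeq2. Leaving out each heart in turn moved the log2 fold change between -0.98 and -0.63, and the gene was called in none of these fits. Of the stretches of 100 bases in its transcripts, 21.9% also occur in another gene, mainly the pseudogene Gm13502, which had at most 1 count in a heart.

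Fdft1 (ENSMUSG00000021273, chr14:63145150-63179578, minus strand) encodes squalene synthase, the first enzyme that commits the isoprenoids to sterols. Its level was 34.0, 30.1 and 35.9 CPM in α1r/rα2s/s hearts and 38.3, 40.2 and 44.6 CPM in α1s/sα2s/s hearts. Every α1s/sα2s/s heart was above every α1r/rα2s/s heart. The mean was 33.3 ± 2.92 and 41.0 ± 3.22 CPM (SD, n = 3 each), and the log2 fold change was 0.30 (SE 0.09) with an adjusted p of 0.141 by edgeR. Exons of Ctsb, the gene of the protease cathepsin B, cover 18.3% of the exonic bases of Fdft1 on the opposite strand. Ctsb had 8111, 9020 and 8542 counts in α1r/rα2s/s hearts and 8787, 7992 and 7957 in α1s/sα2s/s hearts, against 631 to 860 for Fdft1. Whether the counting used strand was not given in the sources used here, so reads from the shared stretch cannot be told apart.

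Sqle (ENSMUSG00000022351, chr15:59315077-59331192, plus strand) encodes squalene epoxidase, the first oxygen-requiring step. It was at 2.43, 2.34 and 2.16 CPM in α1r/rα2s/s hearts and at 3.33, 1.95 and 3.63 CPM in α1s/sα2s/s hearts. Mouse 380 had the lowest level of all 6 hearts, with 37 counts, while mice 379 and 381 had the highest. The log2 fold change was 0.36 (SE 0.29; adjusted p = 0.617 by edgeR), and without 1 heart it ranged from 0.19 to 0.59.

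Lss (ENSMUSG00000033105, chr10:76531588-76557138, plus strand) encodes lanosterol synthase, which closes the sterol rings. It was at 4.01, 3.63 and 3.67 CPM in α1r/rα2s/s hearts and at 5.36, 4.21 and 4.46 CPM in α1s/sα2s/s hearts. The genotypes did not overlap, but mouse 380 lay only slightly above mouse 368. The log2 fold change of 0.31 (SE 0.21) had an adjusted p of 0.525 by edgeR.

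Fdps (ENSMUSG00000059743, chr3:89093588-89101959, minus strand) encodes farnesyl diphosphate synthase, whose product feeds both sterols and protein prenylation. It was counted 4, 4 and 1 times in α1r/rα2s/s hearts and 3, 2 and 7 times in α1s/sα2s/s hearts, too few for the test, and no fold is given. In the GENCODE M21 annotation, 85.9% of its coding bases and 26.7% of its exonic bases lie within exons of the gene Gm43738 on the same strand. Gm43738 (chr3:89081939-89101099) had no count in any of the 6 hearts. Whether reads over both genes were left uncounted was not tested, and the counts of Fdps are not read here as its level.

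The levels were also compared per kilobase of exon (RPKM), since CPM does not allow genes of different length to be set side by side. Fdft1 averaged 8.80 RPKM over the 6 hearts (range 7.13 to 10.6), Insig1 7.94 (6.30 to 9.60) and Hmgcs1 7.13 (6.71 to 7.70). The ranges of these 3 genes overlapped, so their order is not separated by the spread between hearts. Srebf2 was lower at 4.69 RPKM (3.78 to 5.39), with no heart reaching the lowest value of the first 3. Idi1 at 0.988 RPKM (0.524 to 1.31), Sqle at 0.476 (0.351 to 0.655) and Lss at 0.392 (0.337 to 0.497) formed a lower set in which neighbours overlapped. The exon lengths join all annotated isoforms, from 3093 bases for Insig1 to 10787 bases for Lss, and a heart may use only some of these exons. Most of the other enzymes lay between the high and the low members in the plot of levels along the pathway.

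**Figure D2:**
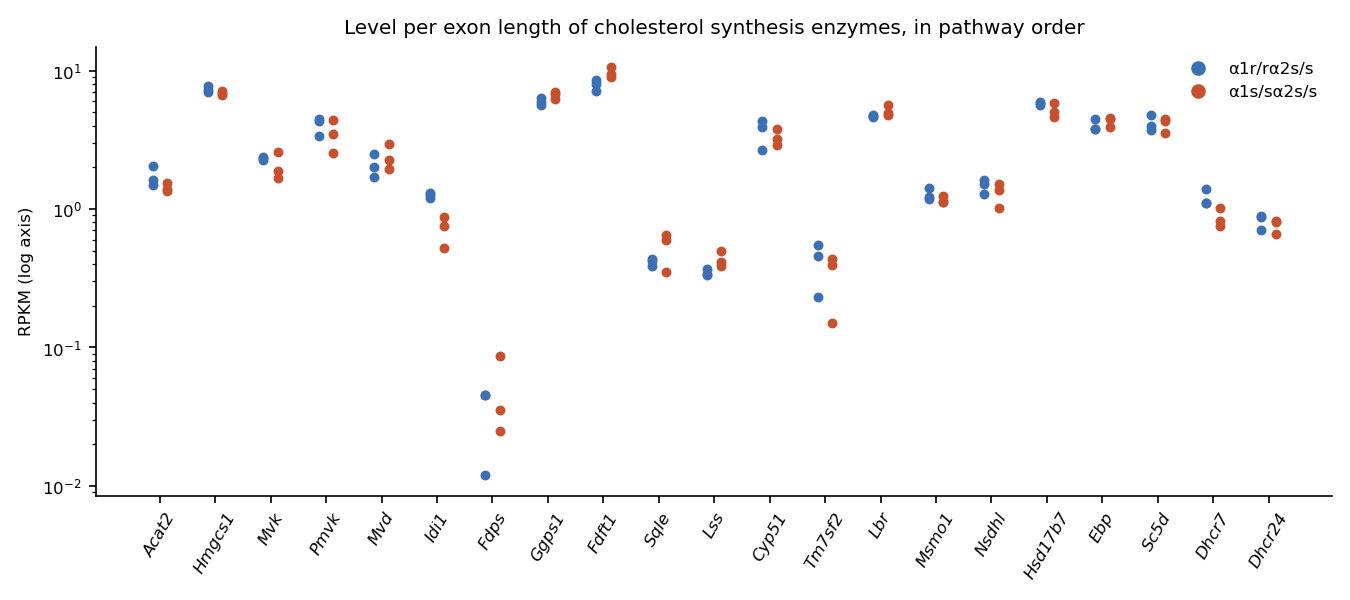
Level per kilobase of exon (RPKM, log axis) of the listed cholesterol synthesis enzymes, ordered along the pathway, with Ggps1 as a branch to protein prenylation. Points are single hearts in the colour of their genotype, 3 of each. Fdft1 has the highest mean, with hearts at 7.13 to 10.6 RPKM that overlap those of Hmgcs1 (6.71 to 7.70). Sqle and Lss stay below 1 RPKM in every heart. The points of Fdps rest on 1 to 7 counts per heart and are not read as its level.

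The 7 tested genes did not vary as a single block across hearts. Over the 21 pairs, Pearson's r of log2 CPM across the 6 hearts ranged from -0.91 to 0.89 with a median of -0.56, and 9 pairs were positive. After the genotype means were subtracted, r ranged from -0.82 to 0.80 with a median of -0.14 and 8 positive pairs. Sqle, Lss and Insig1 went together, with r of 0.69 to 0.89 before and 0.58 to 0.76 after subtraction. Srebf2 and Hmgcs1 also went together (r = 0.89, and 0.80 after subtraction), and Hmgcs1 went against Insig1 (-0.90 and -0.82). The sign of Idi1 with Srebf2 was not the same in both readings, with r = 0.56 over all hearts and -0.71 within genotypes. It also changed for Hmgcs1 with Idi1 (0.49 and -0.31) and for Idi1 with Fdft1 (-0.61 and 0.53). Fdft1 with Lss (0.59 and -0.25) and Lss with Srebf2 (-0.65 and 0.05) changed sign too. These are descriptions over 6 hearts that share library depth and scaling, and the lowest genes carry counting noise, since Sqle had 37 to 70 counts and Idi1 37 to 96.

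**Figure D3:**
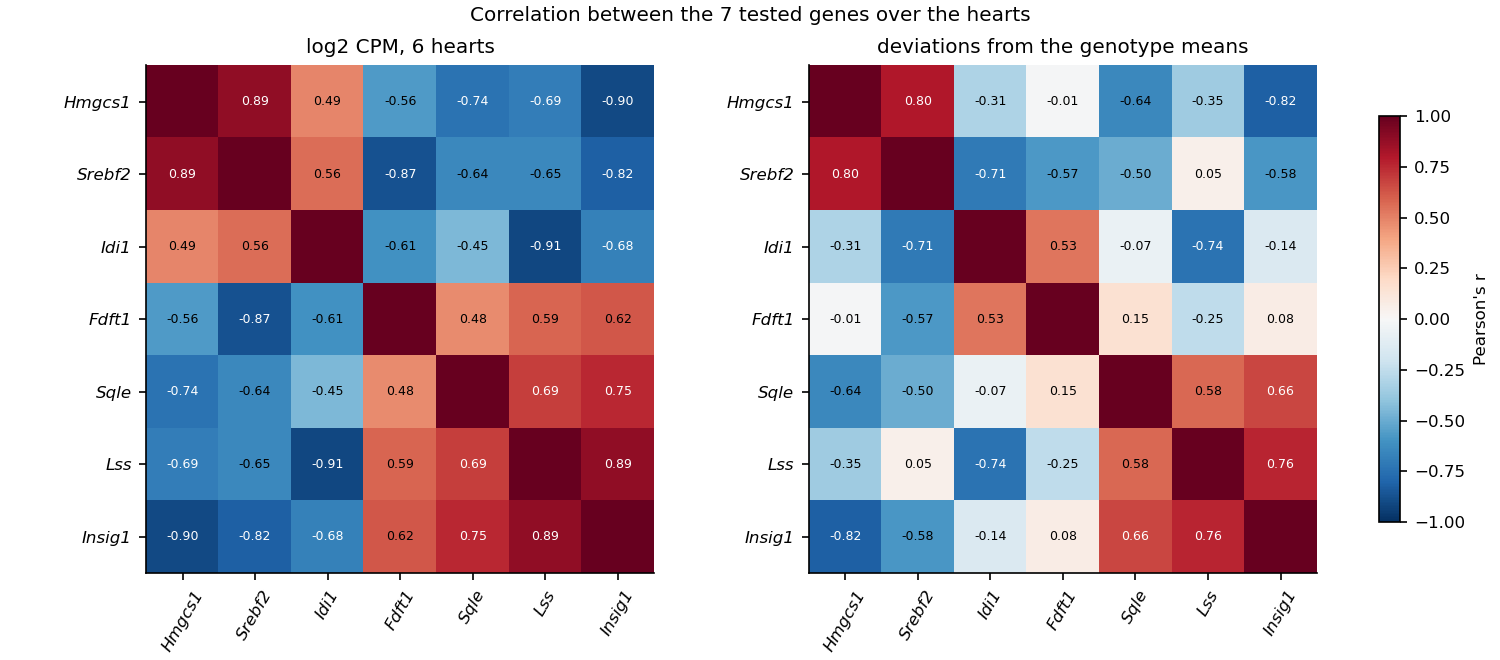
Pearson's r between the 7 tested genes over the 6 hearts, from log2 CPM on the left and from deviations from each genotype's mean on the right, in colour from -1 to 1. Sqle, Lss and Insig1 form a positive corner in both panels, and Hmgcs1 with Srebf2 another. Several pairs change sign between the panels, among them Idi1 with Srebf2 (0.56 and -0.71).

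The rest of the pathway was read from 41 other genes in 5 lists, which do not cover every gene of the pathway. The lists were written from general knowledge, but with earlier results of these data known. Of the 41 genes, edgeR called 2, Srebf1 and Mylip, both higher in α1s/sα2s/s hearts, where 1.44% of all genes tested were called. DESeq2 called these and Vldlr, where it called 3.65% of the genes it adjusted. At an unadjusted p of 0.05 by edgeR, 12 of the 41 passed, against 14.5% of all genes tested. By list, these were 4 of 8 for sterol uptake and storage and 3 of 4 for LXR and sterol efflux. Fatty acid synthesis had 3 of 9, and the list of SREBP processing had 1 of 5. Among the 15 other enzymes of cholesterol synthesis, none was called, 4 were higher and 11 lower, and the median log2 fold change was -0.14, where that of all genes tested was -0.01. Of the 15, 1 had an unadjusted p under 0.05, a smaller share than the 14.5% of all genes tested. The smallest p was that of Dhcr7, which reduces the last sterol precursor to cholesterol. Dhcr7 was at 8.16, 6.40 and 6.48 CPM in α1r/rα2s/s hearts and 5.91, 4.42 and 4.77 CPM in α1s/sα2s/s hearts. Its log2 fold change was -0.48 (SE 0.19; adjusted p = 0.253 by edgeR). Ggps1, which leads from farnesyl diphosphate to geranylgeranyl groups, had 0.16 (SE 0.09; adjusted p = 0.440).

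Of the 5 genes that make up or process the SREBPs, Srebf1 rose. Srebf1 (ENSMUSG00000020538, chr11:60199089-60222581) encodes SREBP1, the family member better known for fatty acid synthesis. It was at 26.4, 22.9 and 24.2 CPM in α1r/rα2s/s hearts and at 38.3, 35.6 and 36.4 CPM in α1s/sα2s/s hearts, with a wide gap between the genotypes. Its mean rose from 24.5 ± 1.78 to 36.8 ± 1.40 CPM (SD, n = 3 each), which gave a log2 fold change of 0.59 (SE 0.09) with an adjusted p of 0.00546 by edgeR and 2.1e-05 by DESeq2. It was called without any one heart as well, with an adjusted p of at most 0.0239. The other members of the list were not called, and Insig2, the second INSIG, had a log2 fold change of 0.01 (SE 0.07; adjusted p = 0.955).

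Srebf1 and Srebf2 had opposite directions, and the ratio of their RPKM was compared after their values were seen. It was 0.986, 0.763 and 0.796 in α1r/rα2s/s hearts and 1.52, 1.44 and 1.71 in α1s/sα2s/s hearts. On the log2 scale the mean was -0.25 ± 0.20 and 0.63 ± 0.13 (SD, n = 3 each), a difference of 0.88 or 1.84-fold. All α1s/sα2s/s hearts were above all α1r/rα2s/s hearts, which had to be so because Srebf1 and Srebf2 each separated the genotypes in opposite directions. The two-sided exact permutation test gave p = 0.1, the smallest that 3 against 3 hearts allow. That outcome was fixed once the values of both genes were seen, and the test could not pass 0.05. The ratio thus adds no support beyond the values of Srebf1 and Srebf2.

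**Figure D4:**
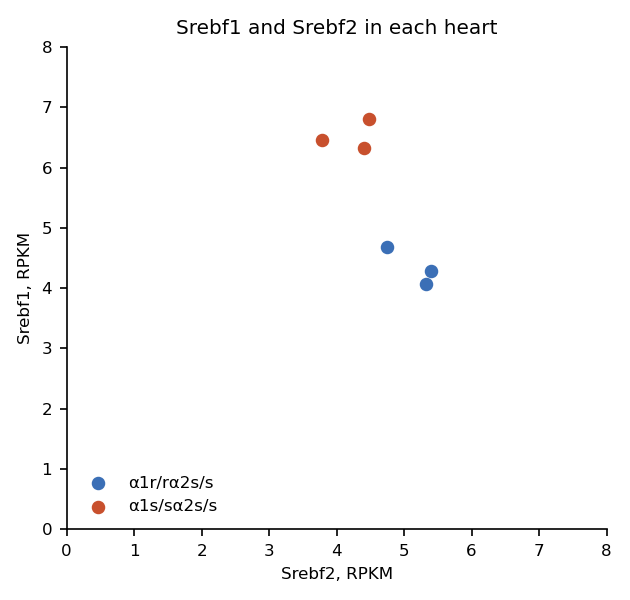
Level of Srebf1 against Srebf2 in each heart, both in RPKM on axes from 0, with points coloured by genotype. The α1s/sα2s/s hearts lie higher on the Srebf1 axis (6.32 to 6.80 RPKM) than the α1r/rα2s/s hearts (4.06 to 4.69), and further left on the Srebf2 axis.

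Among 8 genes of sterol uptake and storage, 4 were higher and 4 lower in α1s/sα2s/s hearts, with a median log2 fold change of -0.02. Only Mylip, which was higher, was called by edgeR. Mylip encodes a ubiquitin ligase, also called IDOL, that marks lipoprotein receptors for degradation and is induced by the sterol sensor LXR. Mylip (ENSMUSG00000038175, chr13:45389742-45412022) was at 21.1, 23.2 and 20.05 CPM in α1r/rα2s/s hearts and 29.2, 28.2 and 32.4 CPM in α1s/sα2s/s hearts, with no overlap. The log2 fold change was 0.48 (SE 0.10; adjusted p = 0.0278 by edgeR). The call was lost without mouse 368, 370, 379 or 381, with adjusted p of 0.0969, 0.0694, 0.0583 and 0.0926. Vldlr, a receptor for triglyceride-rich lipoproteins that is abundant in heart, was named after its values were seen because its call depended on the settings. It was at 561, 525 and 588 CPM in α1r/rα2s/s hearts and 634, 700 and 715 CPM in α1s/sα2s/s hearts, without overlap, and had a log2 fold change of 0.29 (SE 0.07). Its adjusted p was 0.0704 by edgeR and 0.00125 by DESeq2. Within edgeR it passed with no filter on low counts (0.00416) and with a robust prior (0.0453), and it passed in none of the 6 fits without 1 heart (0.0535 to 0.220).

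None of the 4 genes of LXR and sterol efflux was called. The exporters Abca1 and Abcg1 had opposite directions, with log2 fold changes of 0.31 (SE 0.10; adjusted p = 0.140 by edgeR) and -0.74 (SE 0.26; adjusted p = 0.198). Abca1 passed when genes were not filtered on low counts, at an adjusted p of 0.0224. None of the 9 genes of fatty acid synthesis was called either, with 3 higher and 6 lower and a median log2 fold change of -0.26. Fasn, the fatty acid synthase, had 0.29 (SE 0.10; adjusted p = 0.197), and the desaturase Fads1 had -0.33 (SE 0.13; adjusted p = 0.245). The rise of Srebf1 thus stood beside genes of fatty acid synthesis of both directions, none of them called.

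**Figure D5:**
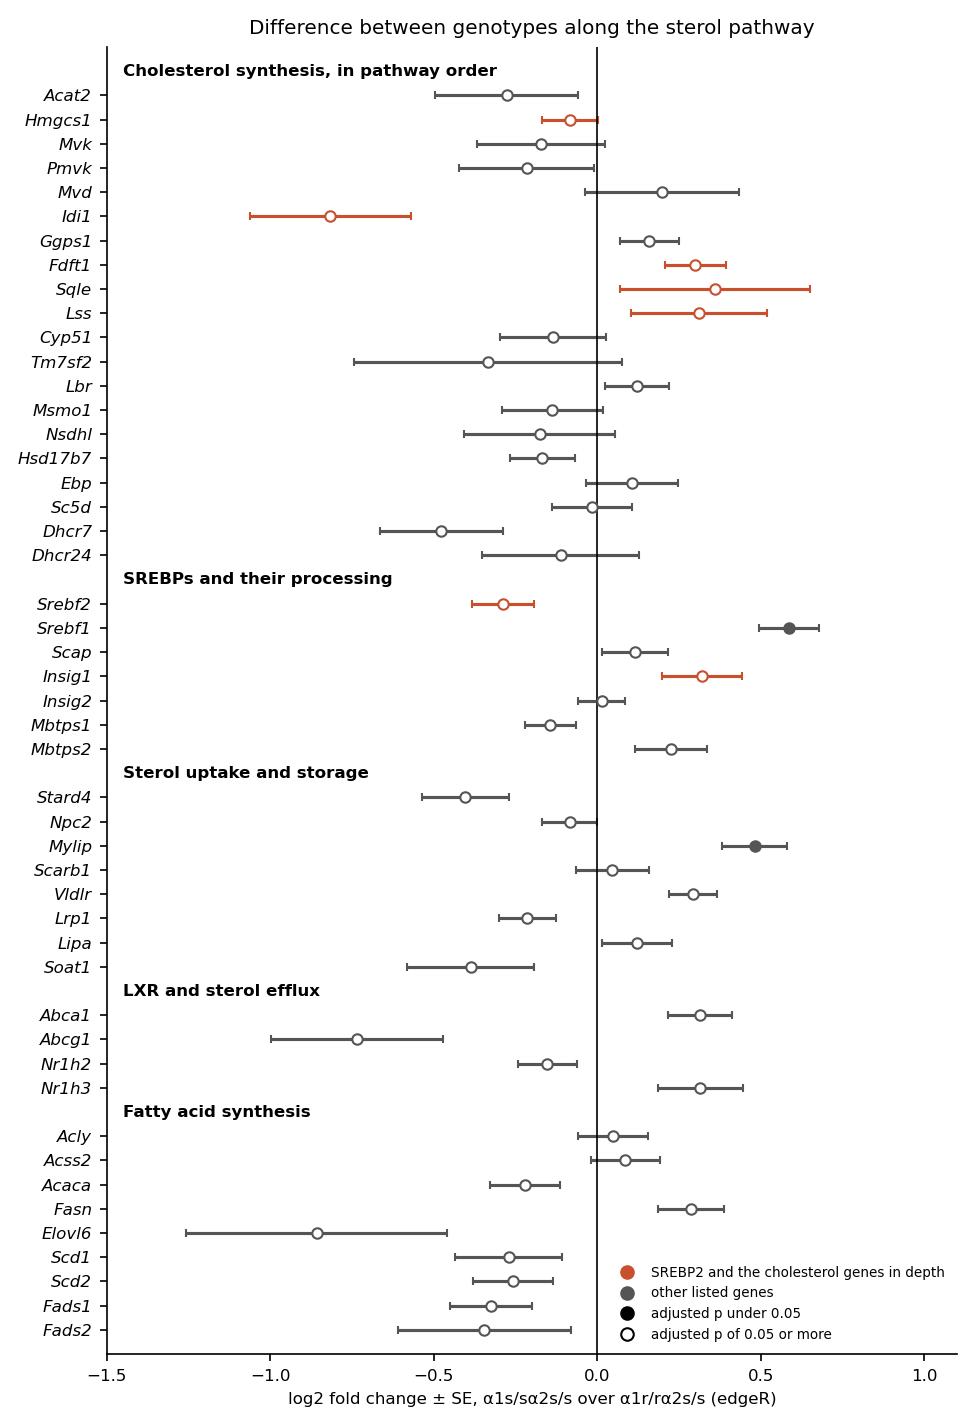
Log2 fold change ± SE (α1s/sα2s/s over α1r/rα2s/s, edgeR, 3 hearts each) of the 7 tested genes in red and of the 41 genes of the other lists in grey. Filled points passed an adjusted p of 0.05, which Srebf1 (0.59) and Mylip (0.48) did, and Idi1 (-0.82) is the lowest of the red points.

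Markers of other cell types were read beside these values. The 5 adipocyte markers summed to 1.06 to 1.96 CPM in α1r/rα2s/s hearts and 1.87 to 4.27 CPM in α1s/sα2s/s hearts, all 3 that could be tested being higher and none called by edgeR. The 5 macrophage markers were all lower in α1s/sα2s/s hearts, with sums of 145 to 230 and 117 to 153 CPM. edgeR called none of the 5, while DESeq2 called C1qa, a complement subunit, at an adjusted p of 0.0395 (0.118 by edgeR). No marker was at 0 in all 6 hearts. The sums overlapped between genotypes for these and for the fibroblast (626 to 686 and 651 to 707 CPM) and endothelial (764 to 895 and 641 to 812 CPM) lists. The adipocyte markers had at most 28 counts each in a heart. The fibroblast and endothelial lists each had 2 markers higher and 2 lower, none called. The endothelial Kdr (log2 fold change -0.50, adjusted p = 0.0694 by edgeR) and the fibroblast Lum (-0.26, adjusted p = 0.155) were lower without overlap. The part of cell composition in the values of the cholesterol genes was not tested.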

How the data were processed

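Total RNA from 6 hearts was sequenced, and the authors deposited raw read counts per gene without normalization. The submitters' processing notes name fastp, STAR, featureCounts and mm10, with no versions, and whether strand was used is not given in the sources used here. Of the gene IDs, 54409 of 54532 were in GENCODE M21 and 53499 had the same coordinates there, so that annotation was used for overlaps. A second deposited table, holding the authors' DESeq2 comparison (mean levels, fold changes and p-values), was not used.

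Counts were tested with edgeR 4.0.16 in R 4.3.3 (TMM scaling, filterByExpr with a minimum count of 10, quasi-likelihood test, Benjamini-Hochberg adjustment over 14866 genes, threshold 0.05), with genotype as the only term, in place of the study's DESeq2. DESeq2 1.42.0 was an alternative. Others were RLE or upper-quartile scaling, no filter, at least 10 counts in every heart, removal of mitochondrially encoded and globin genes, a robust prior, and leaving out each heart. The scripts were tested on simulated counts. CPM and RPKM used TMM-scaled totals and the exon lengths in the table. The 6 hearts held 19309312 to 20470065 counts, relative counting error was smaller in genes with more counts, and the biological coefficient of variation was 11.1%.

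The members and the gene lists were chosen with earlier results of these data known. All 8 members were named, with every called gene of the other lists or, where none was called, the 2 of smallest p. The 5 genes closest in pattern to the members were also named.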

Additional observations from a re-analysis of the deposited data

How the results depend on the processing

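None of the 7 tested cholesterol genes was called under any of the 13 alternatives, and their 91 values all kept their direction (Sqle has no adjusted p in DESeq2, which leaves low-count genes unadjusted). Over the 7 alternatives that keep all hearts, the adjusted p of Idi1 ranged from 0.0609 to 0.131, that of Fdft1 from 0.0712 to 0.157, that of Insig1 from 0.105 to 0.271 and that of Srebf2 from 0.128 to 0.167. Over all genes, the 214 calls became 403 with DESeq2, 618 with no filter on low counts, and 80 to 158 without 1 heart. The 2 calls in the other pathway lists became 3 with DESeq2, 3 with a robust prior, 4 with no filter and 1 to 2 without 1 heart. The causes of these moves were not tested. No paired analysis was made, because the sample labels used here give each mouse a number of its own and no litter. The paper describes its control mice as littermates and, for the RNA sequencing, as matched in age. Idi1 and Sqle rested on 37 to 96 counts per heart, and the smallest difference that could be called at these counts was not measured.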

Other observations

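The mean of the 7 tested genes' standardized levels, which averages genes of opposite direction, was most like that of Dctn3, a dynactin subunit (Pearson's r = 0.988 over 6 hearts). Among the 9037 genes whose log2 CPM averaged 3 or more, the next were Uqcc2 (0.973), Dazap1 (0.969), Tbc1d9b (0.965) and Map3k20 (0.962). These values are descriptions with no test. The genotypes overlapped in each of the 5 genes, and none was called.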
